A study of Mus musculus with 12 samples.

Results

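The genes described here are 41 markers of the renal tubule and collecting duct, chosen by symbol from the proximal tubule, the loop of Henle, the distal tubule and the collecting duct. They were chosen with earlier results of these data known. Rows were found for 38 of them among the 25316 genes listed at either age, and Slc22a6, Slc22a8 and Pvalb had no row. They were read in RNA-seq libraries of cells labelled primary podocytes, the epithelial cells that wrap the glomerular capillaries. The 4 groups of 3 libraries were Cre+/Nsd2fl/fl knockouts and Cre-/Nsd2fl/fl controls at 20 weeks of age, and the same genotypes at 28 weeks. All mice, controls included, carried floxed Nsd2 alleles, which encode a histone lysine methyltransferase, and all were made diabetic by high-fat diet (HFD) and streptozotocin (STZ), so no library came from a mouse without diabetes. The knockout is described as specific to podocytes, but the promoter that drives Cre is not named, and the controls lack the Cre transgene itself. Whether the replicates of a group are different animals is not stated, so p-values reflect only how far replicate libraries differ, and that spread may be technical.

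The renal tubule takes back most of what the glomerulus filters, and each segment does so with its own transporters. The proximal tubule recovers glucose, amino acids, phosphate and filtered protein; the thick ascending limb reabsorbs salt without water; the distal convoluted and connecting tubules handle sodium chloride, magnesium and calcium; and the collecting duct adjusts sodium and water in principal cells and acid in intercalated cells. These genes are known as markers of tubule cells rather than of podocytes, although several, such as Atp1b1, are used by many cell types.

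Total counts per library ran from 31405349 to 38989180. Levels are given as CPM, counts scaled to a fixed library size. Where no read was seen, the level may have reached about 0.0769 to 0.0955 CPM, depending on the library, which is what 3 counts would give. That range was taken from total counts, without the scaling between libraries (TMM) that the levels carry, so it is approximate beside them. Limits and intervals made from counts cover counting error only. Nsd2 was at 51.7, 34.1 and 45.0 CPM in knockout libraries 1 to 3 against 94.2, 66.6 and 79.0 CPM in control libraries 1 to 3 at 20 weeks (adjusted p = 0.0402), and at 35.2, 35.2 and 42.9 CPM in knockouts against 87.2, 77.6 and 80.1 CPM in controls at 28 weeks (adjusted p = 0.00431). Of the podocyte markers, Podxl (podocalyxin) was at 605, 729 and 627 CPM in knockouts and at 354, 242 and 154 CPM in controls at 20 weeks, and at 149, 437 and 362 CPM in knockouts and 582, 286 and 297 CPM in controls at 28 weeks. Nphs1 (nephrin), which defines the slit diaphragm, was low in every library, between 0.914 and 15.2 CPM. At 28 weeks Nphs1 was at 1.44, 3.49 and 0.914 CPM in knockouts against 15.2, 8.39 and 8.56 CPM in controls. It was lower in knockouts there (log2 -2.46, edgeR adjusted p = 0.0240). Its groups overlapped at 20 weeks, at 1.72, 7.35 and 5.40 CPM against 7.49, 4.85 and 1.45 CPM (edgeR adjusted p = 0.919). Knockout library 1 at 28 weeks stood apart from the other knockouts of its age in several of the genes below: Wfdc2, for example, was at 739 CPM there against 3.00 and 28.6 CPM in knockout libraries 2 and 3. Control libraries 2 and 3 at 28 weeks were closely alike, with Mal, for example, at 577 and 586 CPM against 198 CPM in control 1. The 20-week Nsd2 call was lost without each of 5 libraries in turn, all but knockout 1 (adjusted p 0.0729 to 0.164), and the 28-week call of Nsd2 passed whichever 1 library was left out. Where a fold change within an age rests on these libraries, its value without them is given beside it.

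The tubule genes took a small part of each library. Their reads made up 0.0253%, 0.0171% and 0.0156% of all reads in the knockouts at 20 weeks, against 0.0989%, 0.129% and 0.0727% in the controls. At 28 weeks they made up 0.133%, 0.0102% and 0.0176% in the knockouts, against 0.0869%, 0.154% and 0.154% in the controls. The knockout and control ranges were apart at 20 weeks and overlapped at 28 weeks, where knockout library 1 lay among the controls. In every library 5 genes, Atp1b1, Fxyd2, Ggt1, Mal and Wfdc2, held between 80.8% and 97.0% of these reads. In bulk libraries such as these, fewer cells of a type and less RNA per cell cannot be told apart.

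**Figure D1:**
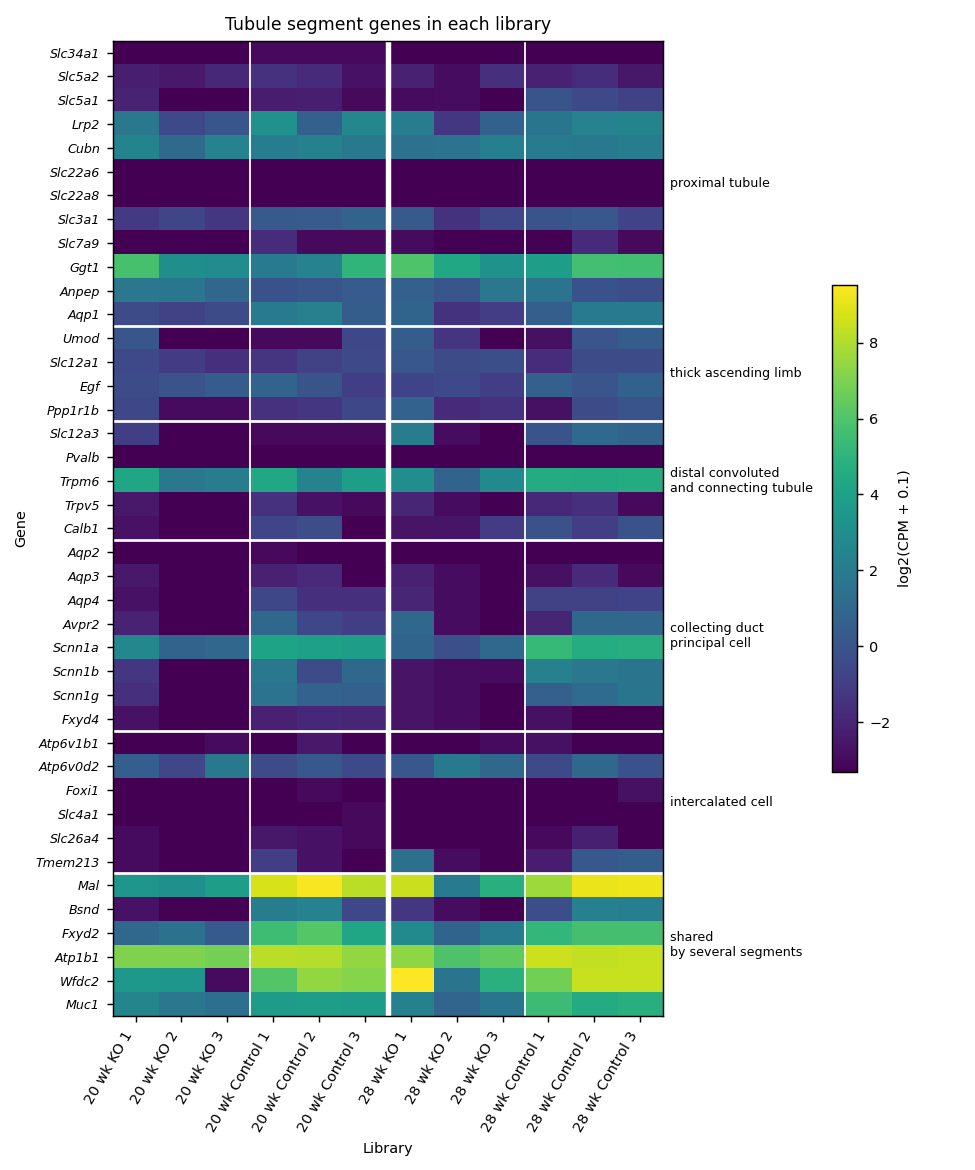
Heat map of log2(CPM + 0.1) for the 41 tubule genes (rows, by segment) in the 12 libraries (columns, knockouts left of controls at each age); genes without a row at an age are drawn at 0 CPM. Mal, Wfdc2, Atp1b1 and Fxyd2 are the brightest rows in controls, the Scnn1 rows are darker in knockouts at both ages, and knockout library 1 at 28 weeks is bright for Mal (363 CPM) and Wfdc2 (739 CPM).

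A gene was tested at an age when it passed edgeR's filter on low counts, and it was called when its p from edgeR's quasi-likelihood test, adjusted by Benjamini-Hochberg across every gene tested at the age, was below 0.05. Adjusted p-values below are from that test unless another is named. At 20 weeks 21 of the tubule genes were tested: 9 were lower in knockouts, 1 was higher and 11 did not pass. Over all 14853 genes tested at that age, 5.13% were called lower and 4.79% higher. At 28 weeks 27 were tested: 10 were lower, 0 were higher and 17 did not pass, beside 11.9% called lower and 9.33% called higher of the 15011 genes tested. The median log2 fold change, knockout over control, was -1.70 for the tested tubule genes and 0.01 for all genes tested at 20 weeks, and -1.31 and 0.07 at 28 weeks. These counts and medians leave out the genes too low to be tested. Avpr2, Scnn1g and Bsnd passed the filter on the controls alone at 20 weeks, as did Slc5a1, Aqp4, Scnn1b and Scnn1g at 28 weeks. For them no knockout library was above the cutoff, 0.275 CPM at 20 weeks and 0.27 CPM at 28 weeks. Of the tested genes, 14 of 21 at 20 weeks and 14 of 27 at 28 weeks were above it in every knockout library. The rest needed a control library above it to be tested. The tubule genes were also chosen with earlier results of these data known. The counts and medians here, and the counts in the next paragraph, are therefore given as a description only.

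The genes called lower at both ages were Scnn1a, Scnn1g, Bsnd, Fxyd2, Atp1b1 and Muc1, which are 6 of the 21 tubule genes tested at both ages; over all genes tested at both ages the share called lower each time was 2.62%. Every knockout library was below every control library for 12 of 21 tested tubule genes at 20 weeks and for 12 of 27 at 28 weeks, beside 16.7% and 22.8% of all genes tested. A count of calls depended on single libraries. At 20 weeks the number called lower was 2, 4 and 9 without control 1, 2 and 3, and 12, 2 and 4 without knockout 1, 2 and 3. At 28 weeks it was 7, 6 and 6 without control 1, 2 and 3, and 13, 8 and 8 without knockout 1, 2 and 3.

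**Figure D2:**
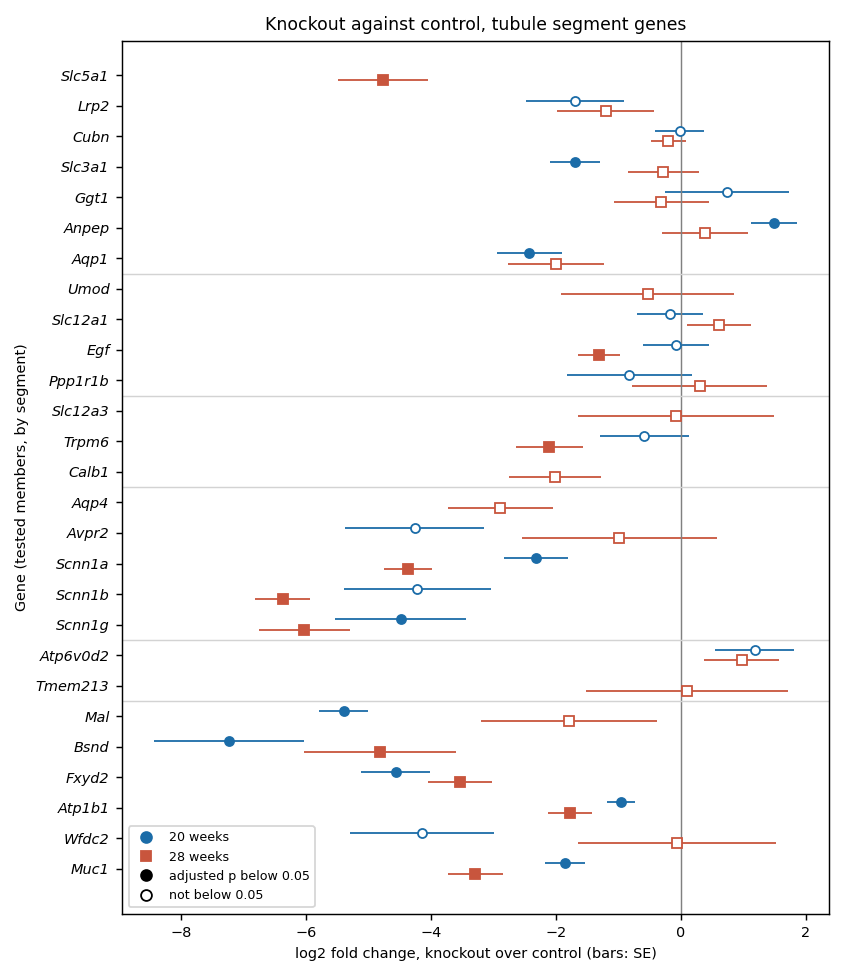
Log2 fold change, knockout over control, of each tubule gene tested (rows, by segment from proximal tubule at the top to genes of several segments at the bottom) at 20 weeks (circles) and 28 weeks (squares), with bars of 1 standard error; filled symbols have an adjusted p below 0.05. The principal cell genes Scnn1a, Scnn1b and Scnn1g and the shared genes Bsnd, Fxyd2 and Muc1 lie left of 0 at both ages, while Cubn and Slc12a1 lie near it, and Anpep at 20 weeks (1.49) is the filled symbol on the right.

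Principal cells of the collecting duct hold the epithelial sodium channel, the aldosterone-regulated entry route for sodium, which is built of the alpha, beta and gamma subunits encoded by Scnn1a, Scnn1b and Scnn1g. Scnn1a and Scnn1g were lower in knockouts at both ages and Scnn1b was lower at 28 weeks. Scnn1a was at 6.09, 1.59 and 1.76 CPM in knockouts against 17.6, 15.3 and 14.2 CPM in controls at 20 weeks. It was at 1.66, 0.791 and 1.89 CPM in knockouts against 39.5, 24.6 and 25.8 CPM in controls at 28 weeks. The groups did not overlap at either age, and knockout library 1 was the highest of the knockouts at 20 weeks. The log2 fold change of Scnn1a was -2.31 (SE 0.51, adjusted p = 0.0289) at 20 weeks and -4.36 (SE 0.39, adjusted p = 0.00296) at 28 weeks. Without knockout 1 the 20-week value was -3.22 (adjusted p = 0.000502). The 20-week call was lost without control 1 (adjusted p = 0.123), control 2 (0.0745), knockout 2 (0.0810) or knockout 3 (0.0937), and the 28-week call passed whichever 1 library was left out.

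Scnn1b had 11, 0 and 0 reads in knockouts against 128, 25 and 71 reads in controls at 20 weeks, or 0.304, 0 and 0 CPM against 3.32, 0.689 and 1.87 CPM. Knockouts and controls did not overlap, yet the test did not pass (log2 -4.21, SE 1.17, adjusted p = 0.0606). It passed with DESeq2 (adjusted p = 0.00445), with no filter on low counts (0.0193), and without knockout 1 (0.00724), when both remaining knockouts had no read and the level was at least 46.6-fold lower, taking 3 counts over both libraries. At 28 weeks Scnn1b had 2, 1 and 1 reads in knockouts and 186, 137 and 119 reads in controls, or 0.0627, 0.0330 and 0.0286 CPM against 4.76, 3.34 and 2.99 CPM (log2 -6.37, SE 0.44, adjusted p = 0.00200). All knockout libraries were at or under the level that 3 counts give, and the call passed whichever 1 library was left out. At that age Scnn1b passed the filter on the controls alone.

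Scnn1g at 20 weeks was also read in the knockouts in library 1 alone, with 9, 0 and 0 reads in knockouts and 110, 56 and 55 reads in controls, or 0.249, 0 and 0 CPM against 2.85, 1.54 and 1.45 CPM (log2 -4.48, SE 1.04, adjusted p = 0.0340). Over knockout libraries 2 and 3 the level was at least 46.0-fold lower than in controls, by the same limit, and the adjusted p without knockout 1 was 0.00246. The call was lost without control 1 (adjusted p = 0.145), control 2 (0.0782), knockout 2 (0.0948) or knockout 3 (0.0986). At 28 weeks the knockouts held 2, 1 and 0 reads and the controls 57, 88 and 125 reads, or 0.0627, 0.0330 and 0 CPM against 1.46, 2.15 and 3.14 CPM (adjusted p = 0.00476). The ratio of control over knockout levels was 73.0 (95% exact interval from the counts 24.7 to 356), and the call passed whichever 1 library was left out. The 28-week call was lost with a block for replicate number (adjusted p = 0.0566). At both ages Scnn1g passed the filter on the controls alone.

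**Figure D3:**
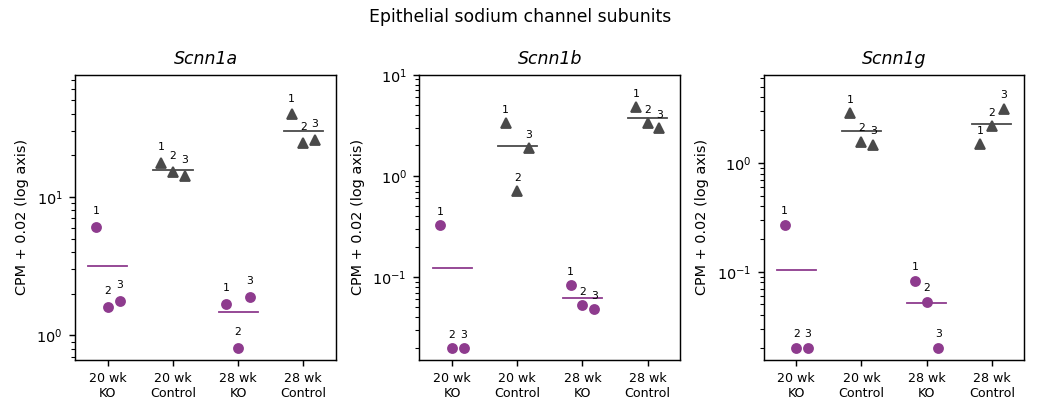
CPM + 0.02 on a log axis for the 3 subunits of the epithelial sodium channel in each library (numbers are library numbers, lines are means), knockouts as circles left of controls as triangles at each age. The knockouts are below the controls in all 3 panels at both ages, and knockout library 1 is the highest knockout at 20 weeks (6.09 CPM for Scnn1a).

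Scnn1g and Scnn1b lie next to each other on mouse chromosome 7, both on the forward strand, at chr7:121734479-121768475 and chr7:121865038-121918514 (GRCm38, GENCODE M21), with 96562 bases between them. The 250 bases before the annotated start of both, and of Muc1 and Slc5a1, are shown. These 4, chosen after their values were seen, are the genes among the 41 with an entry in the RefSeq promoter table (GRCm38.p6) whose 28-week call passed whichever 1 library was left out; the table held 32 of the 41, with 39 windows, and 3 of the 6 called lower at both ages. The windows are chr7:121734229-121734478 for Scnn1g, chr7:121864788-121865037 for Scnn1b, chr3:89228806-89229055 for Muc1 and chr5:33103969-33104218 for Slc5a1, all on the forward strand. Capitals mark 3 motifs found on either strand: the TATA box TATAAA, the core of a GC box GGGCGG, and the E-box of Snail and Zeb factors CACCTG.
Scnn1g: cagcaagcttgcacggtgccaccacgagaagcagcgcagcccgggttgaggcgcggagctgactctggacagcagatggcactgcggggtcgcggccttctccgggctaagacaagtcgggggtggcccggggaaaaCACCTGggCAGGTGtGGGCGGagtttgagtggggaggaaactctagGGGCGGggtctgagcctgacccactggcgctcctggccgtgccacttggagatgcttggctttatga
Scnn1b: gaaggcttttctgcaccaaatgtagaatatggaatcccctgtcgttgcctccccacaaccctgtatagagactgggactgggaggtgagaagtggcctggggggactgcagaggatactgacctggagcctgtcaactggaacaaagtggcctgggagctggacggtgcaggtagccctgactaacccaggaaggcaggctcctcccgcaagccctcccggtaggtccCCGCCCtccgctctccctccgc
Muc1: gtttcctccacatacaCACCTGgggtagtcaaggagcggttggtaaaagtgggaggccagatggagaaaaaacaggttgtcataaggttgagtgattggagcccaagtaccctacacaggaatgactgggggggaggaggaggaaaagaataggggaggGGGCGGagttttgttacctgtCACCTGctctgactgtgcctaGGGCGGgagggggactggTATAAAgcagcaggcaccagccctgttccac
Slc5a1: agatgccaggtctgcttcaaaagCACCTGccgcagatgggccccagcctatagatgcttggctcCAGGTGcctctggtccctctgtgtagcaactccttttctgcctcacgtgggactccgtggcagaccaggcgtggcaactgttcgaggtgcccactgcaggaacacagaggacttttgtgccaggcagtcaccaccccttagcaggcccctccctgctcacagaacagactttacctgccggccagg
GGGCGG stands in the windows of Scnn1g, Scnn1b and Muc1 and not in that of Slc5a1. Counted by window, 15 of the 39 windows of tubule genes hold it, beside 32.7% of all 32851 windows of that length. CACCTG stands in the windows of Scnn1g, Muc1 and Slc5a1, in 15 of the 39 and in 17.2% of all windows. Of the 4, Muc1 alone has TATAAA, which 8 of the 39 and 12.4% of all windows hold. Both strands were also searched for the HNF1 motif GTTAAT, found in 4 of the 39 and 6.43% of all windows. A forkhead motif, TGTTTAC, was found in 4 of the 39 and 3.17% of all windows. The grainyhead motif ACCGGTT was found in 0 of the 39 and 0.831% of all windows, and the 4 windows printed hold none of these last 3 motifs. These matches describe the letters and were not tested against the changes in level.

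The other principal cell genes were low. Avpr2, the vasopressin V2 receptor, was at 0.138, 0 and 0 CPM in knockouts against 1.87, 0.579 and 0.422 CPM in controls at 20 weeks, which did not pass (adjusted p = 0.0502), though it passed with DESeq2 (0.00739), with no filter on low counts (0.0205) and without knockout 1 (0.0164). In the 28-week libraries it was at 1.88, 0.0330 and 0 CPM in knockouts against 0.154, 1.85 and 1.78 CPM in controls, with overlapping groups (log2 -0.99, SE 1.56, adjusted p = 0.708). Without knockout 1, which held 60 of its knockout reads against 1 and 0 in the others, the log2 fold change was -6.11 (adjusted p = 0.0567). Its exons share 81.3% of their bases with Arhgap4 on the opposite strand, and since the strand setting of the counting is not given, reads of the pair cannot be told apart; Arhgap4 did not pass at either age. Aqp4, a water channel of the basolateral membrane, was below every control in every knockout at both ages, with 2, 0 and 0 reads in knockouts against 23, 9 and 9 in controls at 20 weeks, when it was not tested. At the later age it was at 0.157, 0.0330 and 0 CPM in knockouts against 0.461, 0.488 and 0.502 CPM in controls (adjusted p = 0.0551), which passed with DESeq2 (0.0230) and without knockout 1 (0.0172). Aqp2, the apical vasopressin-regulated water channel that defines principal cells, had 1 read in 1 control library at 20 weeks and no row at 28 weeks. Aqp3 and Fxyd4 had at most 8 and 6 reads in any library.

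Genes used by several segments held most of the tubule reads, and 5 of the 6 were lower in knockouts at 20 weeks and 4 of the 6 at 28 weeks, beside 5.13% and 11.9% of all genes tested. Mal, a proteolipid of apical membrane transport, was at 10.3, 8.65 and 14.4 CPM in knockouts against 424, 687 and 290 CPM in controls at 20 weeks (log2 -5.39, SE 0.39, adjusted p = 0.00170). The groups lay far apart and the call passed whichever 1 library was left out. At 28 weeks Mal was at 363, 3.89 and 27.7 CPM in knockouts against 198, 577 and 586 CPM in controls, and it did not pass (log2 -1.79, SE 1.4, adjusted p = 0.425). Knockout library 1 lay above control 1 there, and without it the log2 fold change was -4.85 (adjusted p = 0.0316).

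Wfdc2, a secreted protease inhibitor of the WAP family, was the most abundant of these genes by mean FPKM. It was at 11.4, 10.6 and 0.0284 CPM in knockouts against 68.6, 173 and 146 CPM in controls at 20 weeks. The groups did not overlap, but knockout library 3 held 1 read against 412 and 373 reads in the other knockouts, and the test did not pass (log2 -4.14, SE 1.149, adjusted p = 0.0606). It passed without that library (log2 -3.53, adjusted p = 0.020) and with no filter on low counts (0.0112). At 28 weeks Wfdc2 was at 739, 3.00 and 28.6 CPM in knockouts against 110, 346 and 347 CPM in controls (log2 -0.06, SE 1.59, adjusted p = 0.985). Library 1 of the knockouts held the highest level of all 12 libraries and library 2 the lowest at that age; without library 1 the log2 fold change was -4.08 (adjusted p = 0.0576).

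Fxyd2 and Atp1b1 encode the gamma and beta-1 subunits of the sodium pump, Na,K-ATPase, which drives transport along the whole tubule. Fxyd2 was at 1.83, 2.75 and 1.14 CPM in knockouts against 46.4, 70.3 and 18.4 CPM in controls at 20 weeks (log2 -4.56, SE 0.55, adjusted p = 0.00401). It was at 6.84, 1.65 and 3.91 CPM in knockouts against 35.9, 54.2 and 53.4 CPM in controls at 28 weeks (log2 -3.53, SE 0.51, adjusted p = 0.00703). Groups were apart at either age, and both calls passed whichever 1 library was left out. With a block for replicate number the 28-week call of Fxyd2 was lost (adjusted p = 0.0579). Atp1b1, which most cells express, was at 134, 131 and 113 CPM in knockouts against 289, 273 and 172 CPM in controls at 20 weeks (log2 -0.96, SE 0.22, adjusted p = 0.0329). It was at 163, 61.9 and 82.5 CPM in knockouts against 376, 330 and 345 CPM in controls at 28 weeks (log2 -1.77, SE 0.36, adjusted p = 0.0176). Its groups were also apart, with a smaller difference than Fxyd2. The 20-week call of Atp1b1 was lost without control 1 (adjusted p = 0.116), control 2 (0.127), knockout 2 (0.0871) or knockout 3 (0.123), and the 28-week call without control 1 (0.0529), control 2 (0.0559) or control 3 (0.0597), or with controls 2 and 3 summed (0.0577). Its exons share 18.7% of their bases with Nme7 on the opposite strand, which did not pass at either age.

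Bsnd encodes barttin, the subunit that chloride channels of the thick ascending limb, distal tubule and intercalated cells need to reach the membrane. It had 2, 0 and 0 reads in knockouts against 164, 186 and 22 reads in controls at 20 weeks, or 0.0553, 0 and 0 CPM against 4.25, 5.12 and 0.580 CPM (adjusted p = 0.0105). The ratio of control over knockout levels was 176 (95% exact interval from the counts 48.3 to 1456), with control 3 well below the other controls, and with knockout libraries 2 and 3 together the level was at least 77.4-fold lower. Bsnd passed the filter on the controls alone at that age. At 28 weeks Bsnd was at 0.314, 0.0330 and 0 CPM in knockouts against 0.742, 4.76 and 4.39 CPM in controls (log2 -4.81, SE 1.21, adjusted p = 0.0358). The groups did not overlap, but control 1 and knockout 1 lay near each other. The 20-week call was lost without control 1 (adjusted p = 0.0571), knockout 2 (0.0512) or knockout 3 (0.0551). The 28-week call was lost without control 2 (0.105), control 3 (0.104), knockout 2 (0.114) or knockout 3 (0.0737) and with controls 2 and 3 summed (0.103), and without knockout 1 the log2 fold change was -7.49 (adjusted p = 0.0228).

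Muc1, a transmembrane mucin of the apical surface, was at 5.75, 3.29 and 2.53 CPM in knockouts against 13.8, 14.4 and 13.6 CPM in controls at 20 weeks (log2 -1.85, SE 0.32, adjusted p = 0.0125). It was at 4.89, 1.71 and 3.09 CPM in knockouts against 44.1, 23.5 and 27.1 CPM in controls at 28 weeks (log2 -3.29, SE 0.45, adjusted p = 0.00627). No knockout reached a control at either age, and the controls at 20 weeks were close to each other. The 20-week call was lost without control 1 (adjusted p = 0.0648) or knockout 2 (0.0524), and the 28-week call passed whichever 1 library was left out.

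**Figure D4:**
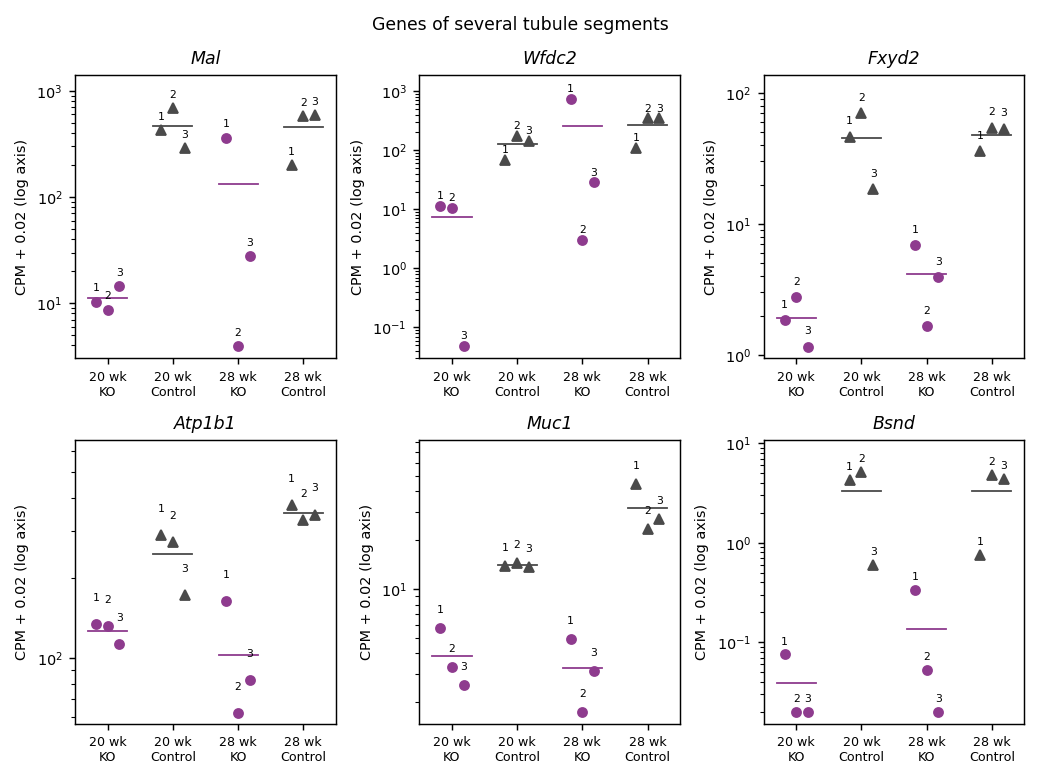
CPM + 0.02 on a log axis for the 6 genes of several tubule segments in each library (numbers are library numbers, lines are means), knockouts as circles left of controls as triangles at each age. Fxyd2, Atp1b1, Muc1 and Bsnd are lower in every knockout than in every control at both ages, while knockout library 1 at 28 weeks reaches the controls for Mal (363 CPM) and exceeds them for Wfdc2 (739 CPM).

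Of the proximal tubule genes, 2 of 6 tested at 20 weeks were lower and 1 was higher, and 1 of 7 tested at 28 weeks was lower. Over all genes tested, 5.13% were lower and 4.79% higher at 20 weeks, and 11.9% were lower at 28 weeks. Slc3a1, the rBAT subunit of the cystine transporter, was at 0.360, 0.539 and 0.313 CPM in knockouts against 1.17, 1.21 and 1.58 CPM in controls at 20 weeks (log2 -1.70, SE 0.40, adjusted p = 0.0358). Its groups did not overlap, but the call was lost without each of the 6 libraries in turn (adjusted p 0.0646 to 0.126) and with no filter on low counts (0.0582). In libraries of 28 weeks it was at 1.13, 0.264 and 0.600 CPM in knockouts against 0.896, 1.02 and 0.502 CPM in controls, with overlapping groups (log2 -0.28, adjusted p = 0.780; without knockout 1 -0.89, 0.321). Its exons share 26.5% of their bases with Prepl on the opposite strand, which did not pass at either age. Aqp1, the water channel of the proximal tubule and thin descending limb that endothelial cells also make, was at 0.692, 0.482 and 0.682 CPM in knockouts against 3.89, 4.82 and 1.29 CPM in controls at 20 weeks (log2 -2.42, SE 0.52, adjusted p = 0.0269). That call was lost without control 1 (adjusted p = 0.106), control 2 (0.0934), knockout 2 (0.0972) or knockout 3 (0.0906), and with a model of all 12 libraries (0.0514). At 28 weeks Aqp1 was at 1.66, 0.264 and 0.400 CPM in knockouts against 1.41, 3.93 and 3.94 CPM in controls (adjusted p = 0.121), and it passed with DESeq2 (0.0407) and without knockout 1 (log2 -3.22, adjusted p = 0.0239).

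Anpep, the brush-border aminopeptidase N that many other cells also carry, was the tubule gene called higher. It was at 3.32, 3.18 and 1.82 CPM in knockouts against 0.830, 0.937 and 1.19 CPM in controls at 20 weeks (log2 1.49, SE 0.37, adjusted p = 0.0422). The groups did not overlap, yet the call was lost without each of the 6 libraries in turn (adjusted p 0.0516 to 0.138) and in a model of all 12 libraries (0.132). At 28 weeks it was at 1.44, 0.989 and 3.31 CPM in knockouts against 2.84, 0.829 and 0.753 CPM in controls, with overlapping groups (adjusted p = 0.746). Slc5a1, the sodium-glucose transporter SGLT1, had at most 5 reads in any library at 20 weeks. In the 28-week libraries it had 1, 1 and 0 reads in knockouts against 35, 25 and 18 reads in controls, or 0.0314, 0.0330 and 0 CPM against 0.896, 0.610 and 0.452 CPM (adjusted p = 0.00751). The ratio of control over knockout levels was 31.6 (95% exact interval from the counts 8.46 to 266), and the call passed whichever 1 library was left out.

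Ggt1, the brush-border gamma-glutamyltransferase and the proximal gene with the highest mean FPKM, was at 54.9, 8.37 and 7.28 CPM in knockouts against 3.99, 5.10 and 33.4 CPM in controls at 20 weeks. At the later age it was at 63.4, 21 and 9.20 CPM in knockouts against 14.6, 52.2 and 49.4 CPM in controls. The groups overlapped at both ages (adjusted p = 0.721 and 0.818), with knockout library 1 the highest library of each age; without it the log2 fold change was -0.85 in place of 0.73 at 20 weeks and -1.403 in place of -0.31 at 28 weeks, and neither passed. The endocytosis receptors megalin (Lrp2) and cubilin (Cubn) did not pass either. Lrp2 ranged from 0.624 to 3.49 CPM in knockouts and 1.46 to 8.94 CPM in controls at 20 weeks, and from 0.330 to 4.08 CPM in knockouts and 3.07 to 5.52 CPM in controls at 28 weeks; without knockout 1 it passed at 20 weeks (log2 -2.76, adjusted p = 0.0439) and did not at 28 weeks (-2.29, 0.0697). Cubn stayed between 2.04 and 5.39 CPM in all 12 libraries. Genes that define the mature proximal tubule were at or near 0: the phosphate transporter Slc34a1 had 1 read in each control at 20 weeks and 0 in the knockouts, and the organic anion transporters Slc22a6 and Slc22a8 had no row at either age. The glucose transporter Slc5a2 (SGLT2) and the cystine transporter subunit Slc7a9 had at most 10 and 8 reads in any library.

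Thick ascending limb genes were all low. Egf, the growth factor precursor made there and in the distal tubule, was at 0.692, 0.880 and 1.22 CPM in knockouts against 1.61, 0.909 and 0.422 CPM in controls at 20 weeks (adjusted p = 0.956). In libraries of 28 weeks it was at 0.502, 0.626 and 0.429 CPM in knockouts against 1.43, 0.951 and 1.48 CPM in controls (log2 -1.31, SE 0.34, adjusted p = 0.0377). The groups overlapped at 20 weeks and were apart at 28 weeks, where the call was lost without each of the 6 libraries in turn (adjusted p 0.0597 to 0.146), with controls 2 and 3 summed (0.0892), with no filter on low counts (0.0676) and in a model of all 12 libraries (0.0728). Ppp1r1b (DARPP-32), with the highest mean FPKM of the segment, was at 0.581, 0.0284 and 0.0284 CPM in knockouts against 0.259, 0.303 and 0.580 CPM in controls at 20 weeks. At 28 weeks it was at 1.54, 0.198 and 0.257 CPM in knockouts against 0.0512, 0.659 and 0.903 CPM in controls. Groups overlapped and neither age passed (adjusted p = 0.683 and 0.882), though without knockout 1 it passed at 20 weeks (log2 -3.59, adjusted p = 0.0340) and did not at 28 weeks (-1.25, 0.477). The 2 genes that define the segment, Umod (uromodulin) and Slc12a1 (the cotransporter NKCC2), reached at most 51 and 32 reads in any library and did not pass where tested; for Umod at 28 weeks the log2 fold change was -0.53, and -2.44 without knockout 1 (adjusted p = 0.337).

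In the distal convoluted and connecting tubule, Trpm6, a channel for magnesium, was at 19.3, 3.29 and 4.27 CPM in knockouts against 20.5, 5.32 and 14.3 CPM in controls at 20 weeks, with overlapping groups (log2 -0.58, adjusted p = 0.687; without knockout 1 -1.82, 0.0574). In the 28-week libraries it was at 7.87, 1.58 and 6.97 CPM in knockouts against 23.8, 22.7 and 24.2 CPM in controls (log2 -2.10, SE 0.54, adjusted p = 0.0377). The 28-week controls were close together and above every knockout. That call was lost without control 1 (adjusted p = 0.0876), control 2 (0.0975), control 3 (0.103) or knockout 3 (0.0682), with controls 2 and 3 summed (0.1002) and in a model of all 12 libraries (0.0741). Slc12a3, the thiazide-sensitive cotransporter NCC that defines the distal convoluted tubule, had 15, 0 and 0 reads in knockouts and 1 read in each control at 20 weeks. At the later age it was at 4.23, 0.0330 and 0 CPM in knockouts against 0.896, 2.02 and 1.58 CPM in controls (log2 -0.08, adjusted p = 0.978). Knockout library 1 was the highest library at each age, and without it the 28-week difference passed (adjusted p = 0.0116). Calb1 (calbindin) was at 0.0627, 0.0659 and 0.371 CPM in knockouts against 0.819, 0.415 and 0.853 CPM in controls at 28 weeks, which did not pass (log2 -2.01, adjusted p = 0.105) except without knockout 3 (log2 -3.41, adjusted p = 0.0219). At 20 weeks it had 2, 0 and 0 reads in knockouts against 21, 26 and 0 in controls and was not tested. The calcium channel Trpv5 had at most 10 reads in any library.

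Intercalated cells, the acid-base cells of the collecting duct, left little trace in these libraries. Foxi1, the transcription factor that specifies them, had 0 reads in every knockout and at most 2 in a control. The proton pump subunit Atp6v1b1, the anion exchanger Slc4a1 and pendrin (Slc26a4) had at most 3, 1 and 5 reads in any library. Tmem213 was at 2.57, 0.0330 and 0 CPM in knockouts against 0.102, 1.05 and 1.28 CPM in controls at 28 weeks (log2 0.09, SE 1.62, adjusted p = 0.975), with groups that overlapped, and without knockout 1 the value was -5.47 (0.0703). At 20 weeks it had 1, 0 and 0 reads in knockouts against 16, 2 and 0 in controls. Atp6v0d2, a proton pump subunit also known from osteoclasts and macrophages, was at 1.36, 0.568 and 3.41 CPM in knockouts against 0.674, 1.05 and 0.632 CPM in controls at 20 weeks. In libraries of 28 weeks it was at 1.00, 3.59 and 1.94 CPM in knockouts against 0.614, 1.85 and 0.853 CPM in controls, and it did not pass at either age (adjusted p = 0.301 and 0.314).

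Across segments, 14 of the 41 genes were tested at neither age, and each of them had at most 10 reads in every library. In FPKM, which divides by gene length and allows levels of different genes to be compared, the mean over the 12 libraries was 232.9 for Wfdc2, 98.1 for Mal, 80.6 for Atp1b1, 22.1 for Fxyd2, 10.6 for Ggt1, 5.97 for Muc1, 2.47 for Scnn1a and 1.70 for Trpm6, and below 1 for every other tubule gene. Wfdc2 was above Mal within each library of 28 weeks, but the order varied between libraries at 20 weeks. Mal was the higher there in knockout 3 (5.12 against 0.0393 FPKM) and control 1 (164 against 103 FPKM), for example. At 28 weeks Wfdc2 ranged from 4.06 to 999 FPKM in the knockouts and from 154 to 510 FPKM in the controls. Mal ranged from 1.35 to 126 FPKM and from 71.5 to 219 FPKM in the same groups. Atp1b1 was steadier, at 23.1 to 60.7 FPKM in those knockouts and 134 to 146 FPKM in those controls.

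The libraries of a group did not share one level of tubule genes. Over the tested tubule genes, the median log2 difference from the mean of the controls, on the log2(CPM + 0.5) scale, was -1.06, -1.69 and -1.41 in knockout libraries 1 to 3 at 20 weeks and -0.48, -1.51 and -1.60 in knockout libraries 1 to 3 at 28 weeks. Knockout library 1 was the least shifted of its group at both ages, and control 1 at 28 weeks also lay low, at -0.44. Tubule genes with 0 reads numbered 9, 23 and 22 in the knockouts and 6, 5 and 9 in the controls at 20 weeks, and 9, 10 and 20 in the knockouts and 8, 9 and 9 in the controls at 28 weeks.

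Whether the knockout effect differed between 28 and 20 weeks was tested in 1 edgeR model of all 12 libraries, over genes listed at each age; the ages were deposited as separate tables, so age and table cannot be told apart. Of 27 tubule genes tested, 0 passed, as did 0 of all 15662 genes, while 4 tubule genes and 1428 genes in all had an unadjusted p below 0.05. These were Scnn1a (log2 -2.06, SE 0.70), Muc1 (-1.43, SE 0.56), Slc5a1 (-4.03, SE 1.67) and Mal (3.59, SE 1.58), each with an adjusted p = 0.538 from edgeR, where a negative value means a larger decrease in knockouts at 28 weeks. So a call at 1 age alone is not shown to differ from the other age. Between 28 and 20 weeks 0 tubule genes passed within knockouts or within controls. At an unadjusted p below 0.05 from edgeR there were 3 in each, Mal, Wfdc2 and Tmem213 in knockouts and Slc5a1, Muc1 and Slc12a3 in controls, beside 1759 and 466 genes in all. Knockout library 1 at 28 weeks stood far above libraries 2 and 3 for Mal (363 against 3.89 and 27.7 CPM) and Wfdc2 (739 against 3.00 and 28.6 CPM). The same held for Tmem213 (2.57 against 0.0330 and 0 CPM). These 3 values, and that of Mal for the knockout effect between ages, include that library. Their values without it are not given here.

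A second list held 60 tubule and collecting duct genes outside the 41: 13 of 33 tested were lower and 0 higher at 20 weeks, and 15 of 34 lower and 0 higher at 28 weeks, with medians of -1.22 and -1.12. Over all genes tested, 5.13% and 11.9% were lower at those ages. Passing the filter rested on the controls alone for 10 genes of the list tested at 20 weeks, which include 9 of the 13 called, and for 6 tested at 28 weeks, all of them called. The counts and medians of the list are therefore given as a description only. Tfcp2l1, a transcription factor of the distal nephron and collecting duct, was at 31.8, 7.24 and 6.82 CPM in knockouts against 154, 127 and 75.1 CPM in controls at 20 weeks (log2 -2.96, adjusted p = 0.0249). In the 28-week libraries it was at 8.22, 4.48 and 21.8 CPM in knockouts against 165, 155 and 160 CPM in controls (log2 -3.79, adjusted p = 0.00784). The 20-week call of Tfcp2l1 was lost without control 1 (adjusted p = 0.116), control 2 (0.0651), knockout 2 (0.0820) or knockout 3 (0.0819); without knockout 1 it was -4.07 (0.000511), and without knockout 3 at 28 weeks it was -4.71 (0.00307). Car2, the cytosolic carbonic anhydrase, was at 16.9, 15.9 and 14.6 CPM in knockouts against 42.1, 55.0 and 43.3 CPM in controls at 20 weeks (log2 -1.57, adjusted p = 0.00333). At 28 weeks Car2 was at 27.8, 14.1 and 27.9 CPM in knockouts against 37.9, 38.5 and 39.5 CPM in controls and did not pass (log2 -0.73, adjusted p = 0.105).

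By segment, genes of that list with the smallest p at 20 weeks were the amino acid transporter Slc6a19 in the proximal tubule, Kcnj1 (ROMK) in the thick ascending limb, Emx1, Tmem52b and Kcnj10 in the distal tubule, and Ptges and Elf5 in principal cells. Slc6a19 had 3 reads over the knockouts and 80 over the controls (adjusted p = 0.0146), Kcnj1 1 and 84 (0.00574), Emx1 1 and 86 (0.00662) and Tmem52b 1 and 145 (0.00940). Kcnj10 (log2 -3.39, adjusted p = 0.0145), Ptges (-2.74, 0.0145) and Elf5 (-5.20, 0.0148) were read a little more. No knockout library was above the filter's cutoff for Slc6a19, Kcnj1, Emx1, Tmem52b, Kcnj10 or Elf5. At 28 weeks Ptges (log2 -1.57, adjusted p = 0.138), Elf5 (-3.05, 0.107) and Emx1 (-1.77, 0.361) did not pass. Without 1 library the 20-week call was lost for Slc6a19 (controls 1 and 2, knockouts 2 and 3), Elf5 (the same 4), Kcnj10 and Ptges (control 1, knockouts 2 and 3) and Tmem52b (knockout 3), with adjusted p up to 0.0731; Kcnj1, Emx1 and Car2 passed whichever 1 library was left out. Without knockout 1 the log2 fold change was -4.33 for Kcnj10 and -5.35 for Slc6a19, and Kcnj1, Emx1, Tmem52b and Elf5 had no read in the remaining knockouts. At 28 weeks genes with the smallest p were the bicarbonate transporter Slc4a4 (log2 -2.84, adjusted p = 0.00523) and Slc6a19 (-3.06, 0.0108), the tight junction gene Cldn19 (-6.09, 0.00350) and the calcium-sensing receptor Casr (-4.85, 0.00890), Tmem52b (-3.06, 0.00343), the kinase Wnk4 (-1.61, 0.00690) and Kcnj10 (-3.50, 0.0247), and St6gal1 (-0.78, 0.00570) and nephronectin, Npnt (-0.97, 0.00647). No knockout was above the cutoff for Slc6a19, Casr, Tmem52b or Kcnj10 there. At 20 weeks Slc4a4 (-1.22, adjusted p = 0.191), Cldn19 (-1.58, 0.177), Casr (-4.21, 0.0565), Wnk4 (-0.90, 0.123), St6gal1 (0.18, 0.725) and Npnt (-0.01, 0.978) did not pass. Of the 28-week calls, Slc6a19 lost its call without control 3 (0.0536) and Kcnj10 without 4 libraries in turn (up to 0.0730), while without knockout 1 Cldn19 was at -7.09 and Casr at -6.42.

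Genes of other cell types were read in the same libraries. Their counts of calls stand beside 5.13% of all genes tested called lower at 20 weeks and 11.9% at 28 weeks. The summed level of 12 simple epithelium genes (such as Cdh1, Epcam and Krt7) was 2290, 256 and 258 CPM in knockouts against 3645, 6634 and 5180 CPM in controls at 20 weeks, and 7564, 70.9 and 722 CPM in knockouts against 5000, 7901 and 8002 CPM in controls at 28 weeks. Of the 12, 6 were lower at 20 weeks and 3 at 28 weeks. By these sums knockout library 1 again stood nearest to the controls. At 28 weeks Krt8 made up most of its sum, at 5545 CPM against 29.9 and 196 CPM in the other knockouts. Epcam (478 CPM) and Krt7 (378 CPM) were also highest of the knockouts there. Cdh1 was not, at 18.9, 2.18 and 38.0 CPM in knockouts against 805, 509 and 521 CPM in controls (adjusted p = 0.0163). The list of 8 parietal epithelium genes, which shares Krt8 and Krt19 with it, summed to 1743, 477 and 454 CPM in knockouts against 1312, 3058 and 2570 CPM in controls at 20 weeks, and to 6403, 259 and 751 CPM in knockouts against 2136, 4203 and 4306 CPM in controls at 28 weeks, with 3 of 8 lower at each age.

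Of 15 podocyte genes, 8 were higher and 1 lower at 20 weeks, with sums of 2728 to 3316 CPM in knockouts against 1182 to 1678 CPM in controls. At 28 weeks 2 of 15, Nphs1 and Cdkn1c, were lower and 0 higher. The sums there were 993, 2991 and 2165 CPM in knockouts 1 to 3 against 2372, 1326 and 1355 CPM in controls, with knockout library 1 the lowest. Over all genes tested, 5.13% were lower and 4.79% higher at 20 weeks, and 11.9% and 9.33% at 28 weeks. Of 10 mesangium and smooth muscle genes, 8 were higher and 1 lower at 20 weeks (sums of 9637 to 13544 CPM in knockouts against 4244 to 4799 CPM in controls) and 5 were higher and 0 lower at 28 weeks (6957 to 15667 CPM against 2848 to 3165 CPM). Acta2, the smooth muscle actin, was at 2354, 6549 and 5427 CPM in knockouts against 1173, 1200 and 1185 CPM in controls at 28 weeks. Of 9 leukocyte genes, 7 were tested at each age, and 0 passed at 20 weeks while 3 were higher at 28 weeks (sums of 602 to 825 CPM in knockouts against 68.6 to 84.4 CPM in controls), where Lyz2 was at 505, 661 and 785 CPM in knockouts against 48.5, 51.1 and 48.8 CPM in controls. Cd3e and Cd79a, which define T and B cells, were at or near 0. Of 9 endothelial genes, Ehd3 was higher at 20 weeks and Plvap lower at 28 weeks, beside 4.79% of all genes called higher and 11.9% called lower at those ages. The part of any of these cell types in the tubule gene results was not tested.

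**Figure D5:**
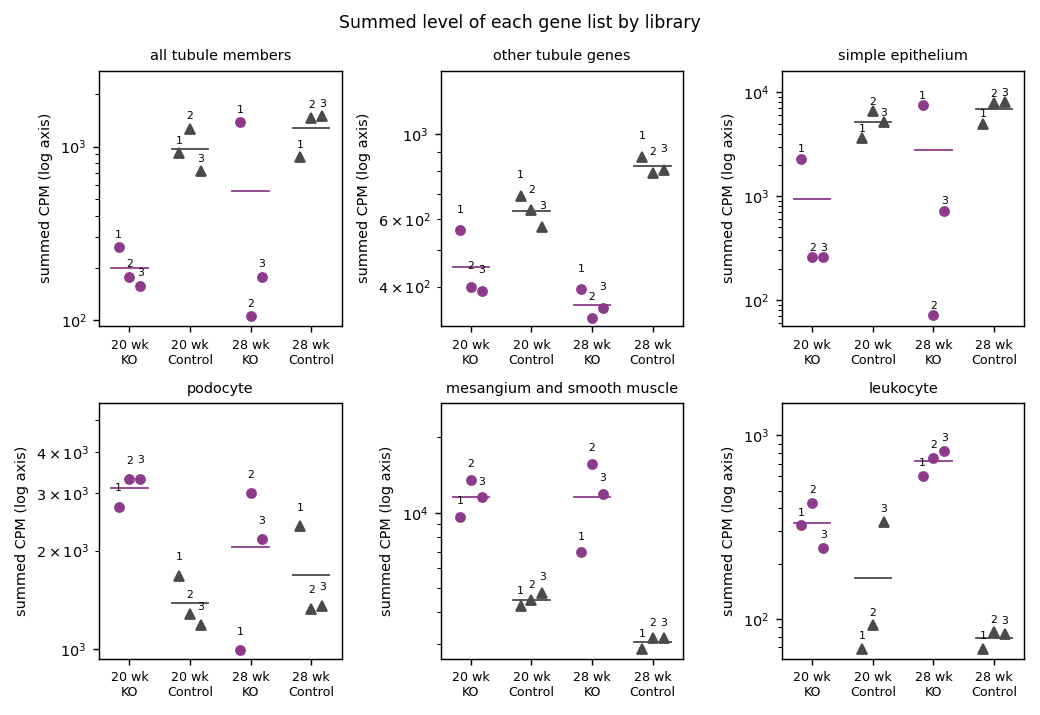
Summed CPM (log axis) of the 41 tubule genes, the 60 other tubule genes and 4 lists of other cell types in each library (numbers are library numbers, lines are means), knockouts as circles left of controls as triangles at each age. The tubule sums are lower in all knockouts at 20 weeks (158 to 263 against 723 to 1269 CPM), and at 28 weeks knockout library 1 (1375 CPM) lies within the control range of 867 to 1496 CPM, as it does for simple epithelium.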

How the data were processed

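RNA was measured by sequencing in 12 libraries of primary podocytes. The authors deposited, for each age, a table of raw counts per gene symbol and a table of FPKM, per the file headers. The genome build is GRCm38 (mm10), per the submitters' processing notes. The alignment, counting, annotation and strand setting remain not given in the sources used here. Genes without a read at an age have no row. Fits were made separately by age in R 4.3.3, using the quasi-likelihood test of edgeR 4.0.16 with TMM scaling, filterByExpr by group, no block, and Benjamini-Hochberg adjustment across the genes tested. CPM used TMM-scaled library sizes, and SE is the log2 fold change over the square root of F. DESeq2 1.42.0 and other settings were alternatives. The procedure was tested on simulated data. The tubule genes and all lists were chosen with earlier results of these data known. Genes with calls and the gene of highest mean FPKM in each segment are given per library; the other tubule genes named had the smallest p, up to 3 per segment and age. Some genes that this rule names are not reported here.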

Additional observations from a re-analysis of the deposited data

How the results depend on the processing

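At 20 weeks 9 tubule genes were called lower, and leaving out 1 library at a time gave 2 to 12; the 1 called higher became 0 whichever 1 library was left out, with the replicate block and in the model of all 12 libraries. At 28 weeks 10 were called lower, with 6 to 13 when 1 library was left out, 3 with the replicate block and 6 with controls 2 and 3 summed. RLE scaling, no filter, a filter of 1 CPM in 3 libraries and DESeq2 gave 8 to 12 lower at each age. No tubule gene passed in the contrasts between ages under any setting run.

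The labels number the libraries alike in both groups, but deviations of same-numbered libraries correlated at -0.10, 0.40 and -0.13 at 20 weeks and -0.62, -0.17 and -0.55 at 28 weeks, and not every library correlated best with its own number, so the numbers were not taken as pairs. The block kept 7 of the 10 calls at 20 weeks and 3 of the 10 at 28 weeks, with 1164 and 332 genes called in all against 1473 and 3183 without it. Calls lost with it at 20 weeks were Anpep (edgeR adjusted p = 0.102), Aqp1 (0.0686) and Slc3a1 (0.0837). Those lost at 28 weeks were Atp1b1 (0.0559), Bsnd (0.186), Egf (0.173), Fxyd2 (0.0579), Scnn1g (0.0566), Slc5a1 (0.0574) and Trpm6 (0.0890). The contrasts between ages within a genotype were not fitted with the block.

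Some values that had not passed changed sign: at 20 weeks Cubn was 0.0093 with no filter and Egf 0.061 with the replicate block; at 28 weeks Ppp1r1b was -0.13 and Tmem213 -2.50 with the block, and Slc12a3 was 0.060 and Wfdc2 0.17 with controls 2 and 3 summed. Leaving out 1 library moved the log2 fold change across 0 at 20 weeks for Egf (-0.43 to 0.46), Cubn (-0.24 to 0.32), Slc12a1 (-0.59 to 0.14) and Ggt1 (-0.85 to 2.37), and at 28 weeks for Ppp1r1b (-1.25 to 0.89), Tmem213 (-5.47 to 0.61), Slc12a3 (-6.35 to 0.44), Wfdc2 (-4.08 to 0.45), Umod (-2.44 to 0.061), Slc3a1 (-0.89 to 0.069), Anpep (-0.30 to 1.27) and Ggt1 (-1.403 to 0.055). None of these had been called at that age, and the cause was not tested. Depth limits the 14 genes with at most 10 reads in every library, which were tested at neither age, so no difference could be called for them.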
